A study of Mus musculus with 21 samples.

Results

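The comparison set the H3K36me3 peak lists of wild-type C2C12 cells at day 5 in control medium against those of the same line at day 1 in control medium. The members were chosen by their labels alone and were 4 of the 20 H3K36me3 libraries of the series, 2 at each day. C2C12 is an established line of mouse myoblasts, the precursor cells of skeletal muscle, so all libraries come from a single line grown in culture. Per the labels, wild-type cells were profiled at day 0 and, in control medium or under methionine restriction (medium low in the amino acid methionine), at days 1 and 5. Setd2 knockout lines followed the same scheme and were not used. The labels state no composition of either medium and no differentiation agent, and nothing in them says whether replicates 1 and 2 came from separate cultures. The p-values below therefore measure only the spread between these libraries, which may be technical.

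H3K36me3 is trimethylation of lysine 36 on histone H3. The enzyme SETD2 lays it down while it travels with RNA polymerase II, so the mark covers the bodies of transcribed genes and is densest toward their ends. When myoblasts become muscle cells they leave the cell cycle, switch on the regulator myogenin and fuse into fibres with many nuclei, which then build sarcomeres and the membranes that couple excitation to contraction. The measure used throughout is cover, the percent of a gene's body that lies inside called peaks in a library. A peak list holds no reads, so the depth of the libraries is unknown, and cover says how far peaks extended, not how strong they were. In a bulk population, more cells carrying the mark on a gene and wider marking in each cell cannot be told apart.

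The 2 day 1 lists held 79690 and 75936 peaks that covered 140 and 150 Mb, and the 2 day 5 lists held 87398 and 87266 peaks that covered 183 and 171 Mb. The day 1 mean was thus 145 ± 7.07 Mb and the day 5 mean 177 ± 8.88 Mb (SD, n = 2 each), with no overlap between the days. With 2 libraries a day the exact two-sided permutation test cannot go below p = 0.333, the value found. Between 95.1 and 95.5% of the covered bases lay in gene bodies of any kind in each of the 4 lists, while gene bodies make up 46.1% of the chromosomes examined. The Jaccard index, the shared length divided by the length covered in either list, was 0.694 between the day 1 lists, 0.692 between the day 5 lists and 0.583 to 0.62 across days.

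Many genes changed cover between the days, and the changes ran in both directions. Of 9514 protein-coding genes with a body of at least 2 kb and a mean cover of at least 5% over the 10 wild-type libraries, 2193 (23.1%) were called at an adjusted p under 0.05 in limma. Cover was higher at day 5 in 1627 genes (17.1%) and lower in 566 (5.95%). Of the 1627, 179 reached the minimum of 5% only through the 2 day 5 control libraries, since the mean of the other 8 libraries was under it, and 6 of the 566 only through the 2 day 1 control libraries. Such genes had to differ to be tested, and their calls are a description. The day 5 lists were also longer, and the split moved with the scaling. After each library was centred on its median gene, which shifted the median difference over all genes tested from 3.89 to −2.21 points, 988 genes were higher (10.4%) and 1176 lower (12.4%). With all lists cut to the same length, strongest peaks first, 631 were higher (7.55%) and 876 lower (10.5%) of 8362 tested. With only peaks of a −log10 q of at least 3, 891 were higher (10.9%) and 405 lower (4.95%) of 8181. Of the 2193 genes, 1554 were also called after centring, all in the same direction, and 885 in the lists of equal length, 883 of them in the same direction. Points are percentage points of cover.

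The genes that rose had long bodies, with a median of 42.0 kb against 22.6 kb over all genes tested, and the median of those that fell was 21.0 kb. Median cover went from 22 to 50.9% in the genes that rose and from 54.2 to 17.4% in those that fell. A gain of at least 40 points was called in 199 genes and a loss of that size in 138. Some genes switched almost completely: 36 went from under 5% in both day 1 libraries to at least 50% in both day 5 libraries, 16 of them from 0%. In the other direction 24 genes went from at least 50% in both day 1 libraries to under 10% in both day 5 libraries. The lists of muscle genes described below held 16 of the 36 and 0 of the 24, and the lists of replication and mitosis genes held 5 of the 24 and 0 of the 36. These switches were defined on the tested values and are a description.

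Cacna1s encodes the voltage sensor of the muscle calcium channel. Its body (GRCm38 chromosome 1, 136052806 to 136119822) went from 0.795 and 0% to 93.1 and 90.2%, a gain of 91.3 points (SE 3.06, adjusted p = 1.29e-06). The gene was thus nearly free of peaks at day 1 and nearly filled by them at day 5. Myom3, an M-band protein of the sarcomere, went from 3.23 and 0.772% to 91.8 and 89.6%. Neb, whose product nebulin runs along the thin filament, went from 8.94 and 9.8% to 95.7 and 95.1% over 202 kb.

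The RefSeq promoters of Cacna1s and Myom3 (250 bases before to 50 after an annotated start) are shown because, among the gains described, they were the first with an entry in the promoter table of GRCm38.p6. Capitals mark CAGCTG, a form of the E-box that factors of the MyoD family can bind.
Cacna1s promoter, chr1:136052561-136052860, plus strand: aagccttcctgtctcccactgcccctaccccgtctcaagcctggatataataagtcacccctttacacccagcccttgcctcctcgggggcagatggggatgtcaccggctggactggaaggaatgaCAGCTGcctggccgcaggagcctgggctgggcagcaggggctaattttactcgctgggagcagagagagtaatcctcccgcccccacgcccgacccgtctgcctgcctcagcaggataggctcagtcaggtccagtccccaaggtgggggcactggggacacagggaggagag
Myom3 promoter, chr4:135759465-135759764, plus strand: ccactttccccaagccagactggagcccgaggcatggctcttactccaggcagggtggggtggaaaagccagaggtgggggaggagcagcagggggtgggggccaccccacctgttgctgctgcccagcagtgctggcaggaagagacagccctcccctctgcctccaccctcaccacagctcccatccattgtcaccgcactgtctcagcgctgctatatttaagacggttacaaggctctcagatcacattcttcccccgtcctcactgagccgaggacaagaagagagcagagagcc
The Cacna1s window holds the letters once, and the Myom3 window does not hold them.

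The other 8 genes of this group included regulators as well as structural genes. Unc45b, a chaperone of myosin, was covered to 1.24 and 0.911% at day 1 and to 83.6 and 88.3% at day 5. Trim63, which encodes the muscle ubiquitin ligase MuRF1, and Scn4a, the sodium channel that carries the muscle action potential, were at 0% in both day 1 libraries. At day 5 Trim63 was at 88.8 and 80.3% and Scn4a at 83.4 and 76.7%. Prkag3, a regulatory subunit of the energy sensor AMPK found in skeletal muscle, went from 7.15 and 0% to 87.7 and 89.9%. Dysf, the membrane repair protein dysferlin, went from 0.46 and 0.718% to 88.2 and 81.5% over 203 kb. Casq2, a calcium-binding protein of the sarcoplasmic reticulum, went from 0.953 and 0% to 84.1 and 78.6%, and Eno2, a glycolytic enolase best known from neurons, from 9.54 and 0% to 87.5 and 81.4%. Scn4a and Eno2 reached the minimum for testing only through the day 5 control libraries. Across the 11 genes the mean cover was 0 to 9.37% at day 1 and 80 to 95.4% at day 5, with adjusted p from 1.29e-06 to 1.2e-05.

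**Figure D1:**
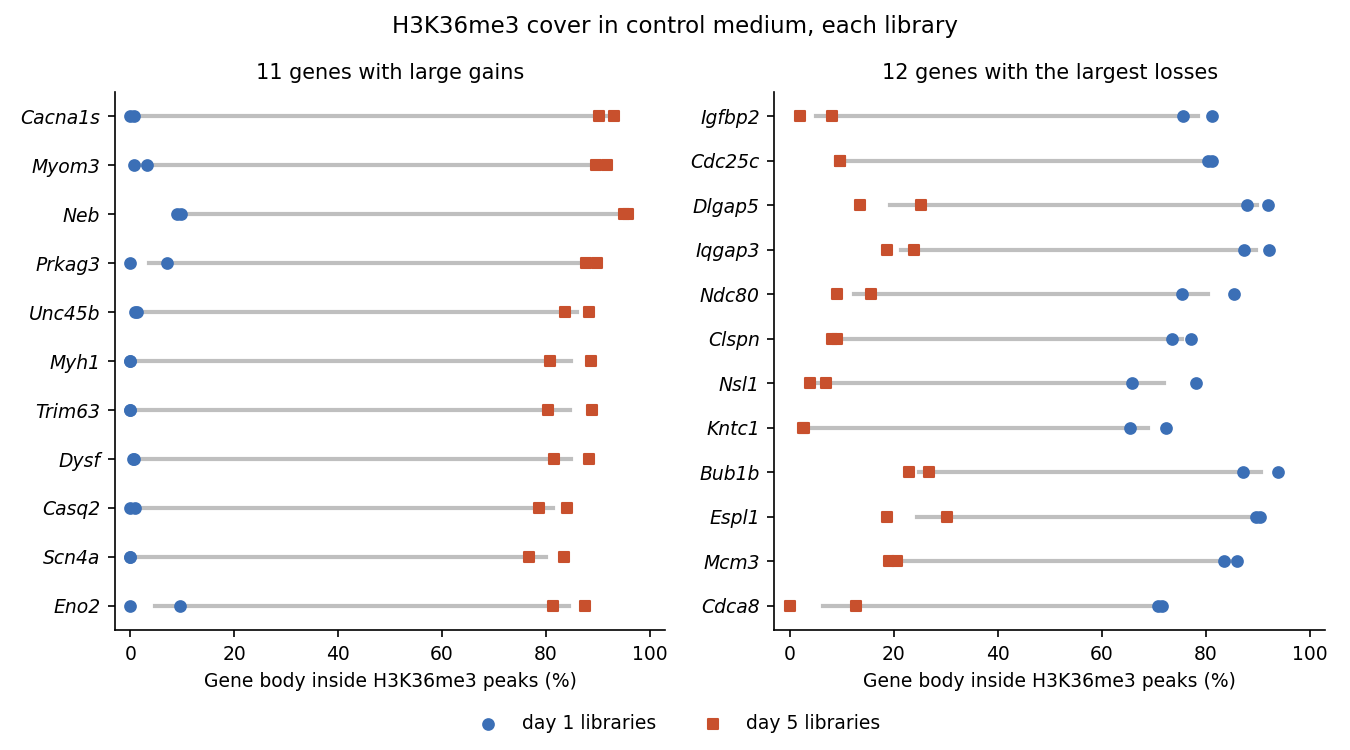
Percent of the gene body inside H3K36me3 peaks for 11 genes with large gains (left) and the 12 with the largest loss (right). Circles are the 2 day 1 libraries, squares the 2 day 5 libraries, and grey lines join the means. Mean cover of the gains runs from at most 9.37% to at least 80%, and that of the losses from at least 68.9% to at most 24.8%.

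The 12 largest losses held Cdc25c and Bub1b of the list of mitosis genes and Mcm3 of that of replication genes, both lists being described below. The largest was Igfbp2, which encodes a secreted binding protein of insulin-like growth factors (chromosome 1, 72824480 to 72852474). It was covered to 75.6 and 81.3% at day 1 and to 8.09 and 1.94% at day 5, and fell by 73.4 points (SE 4.99, adjusted p = 2.6e-05). Cdc25c, the phosphatase that activates the mitotic kinase CDK1, went from 81.2 and 80.4% to 9.62 and 9.67% and fell by 71.2 points (SE 3.58, adjusted p = 4.13e-06). Both had been covered more widely at day 0, at 93.5 ± 1.88% and 86.8 ± 2.84% (SD, n = 2). Dlgap5, a spindle protein, went from 92.0 and 87.9% to 13.4 and 25.2%. Iqgap3, a scaffold protein of the cell cortex, went from 92.1 and 87.3% to 18.7 and 23.9%. In these 4 genes every day 5 value lay far below every day 1 value.

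The promoters of Igfbp2 and Iqgap3 are shown by the same rule. Capitals mark CAGCTG, and the searched letters TTTGGCGC and TTTCCCGC (sites of the E2F type) and CCAAT occur in neither window.
Igfbp2 promoter, chr1:72824230-72824529, plus strand: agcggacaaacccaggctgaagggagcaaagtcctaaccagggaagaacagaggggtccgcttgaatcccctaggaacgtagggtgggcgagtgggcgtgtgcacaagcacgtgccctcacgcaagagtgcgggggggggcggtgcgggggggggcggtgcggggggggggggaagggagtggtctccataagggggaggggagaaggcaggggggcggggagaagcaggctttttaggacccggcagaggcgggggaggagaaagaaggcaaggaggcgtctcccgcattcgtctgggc
Iqgap3 promoter, chr3:88081801-88082100, plus strand: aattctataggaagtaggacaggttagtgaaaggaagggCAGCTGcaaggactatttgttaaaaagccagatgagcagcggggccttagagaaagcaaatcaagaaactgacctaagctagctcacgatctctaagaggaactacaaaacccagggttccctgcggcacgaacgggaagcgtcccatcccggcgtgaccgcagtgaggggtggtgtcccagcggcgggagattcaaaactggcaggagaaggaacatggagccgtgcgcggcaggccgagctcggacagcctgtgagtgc
The E-box letters, which stand once in the window of Cacna1s, also stand once in that of Iqgap3.

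Ndc80, which attaches chromosomes to spindle fibres, went from 75.4 and 85.4% to 9.02 and 15.6%. Nsl1, of the kinetochore complex that binds NDC80, went from 65.8 and 78.1% to 3.77 and 6.95%. Kntc1, of the complex that recruits dynein to kinetochores, went from 65.4 and 72.4% to 2.75 and 2.56% over 71.9 kb. In these 3 genes at most 15.6% of the body lay inside peaks at day 5. Bub1b, a spindle checkpoint kinase, Espl1, the separase that cuts cohesin, and Cdca8, of the chromosomal passenger complex, fell by 65.7, 65.6 and 64.8 points. Clspn, an adaptor of the replication checkpoint, and Mcm3, of the replicative helicase, fell by 66.7 and 65.0 points. Among bodies of at least 50 kb the losses after Kntc1 were those of Kif20b and Cenpe, which encode mitotic kinesins, and Ect2, which activates the GTPase of the contractile ring. They fell by 64.8, 63.9 and 63.6 points. All 26 genes named by size kept their call in each of the 18 alternatives run.

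Segments that lay inside peaks of both libraries of a day and of neither library of the other day were counted where they were at least 1 kb long. There were 3329 such segments at day 5 (5.96 Mb, 97.4% of it in gene bodies) and 864 at day 1 (1.33 Mb, 94.4%). In lists of equal length there were 3404 at day 5 (8.16 Mb) and 4011 at day 1 (9.17 Mb), so gains did not outnumber losses there. Of the gained segments 92 were at least 5 kb long, among them 17510 bp in Cacna1s (chromosome 1, 136103778 to 136121287) and 16648 bp in Myom3. Others among the 15 longest lay in Dysf, Scn4a, Neb and Myh1, and also in Coq8a, a kinase-like factor of coenzyme Q synthesis. Only 2 lost segments reached 5 kb, 6050 bp in Clspn (chromosome 4, 126568526 to 126574575) and 5034 bp in Cdca8. The next longest lay in Igfbp2, Mastl and Akap12. These counts demand 4 lists at once and rose when any list was left out, to 5171 to 8712 gained and 1566 to 1939 lost, so they describe these libraries only.

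Sarcomere genes had the highest median difference of the 18 lists examined. Of 36 members, 35 had a body of at least 2 kb and 33 were tested, and 27 of these rose and 0 fell, also at an unadjusted p under 0.05, against 17.1% of all genes rising. The median difference was 42.5 points over the 35 bodies and 3.89 over all genes tested. Median cover of the list was 15.4% at day 1 and 73.4% at day 5. Of the 27, 10 reached the minimum for testing only through the day 5 control libraries, among them Myh4, Myh7, Myh8, Actn2, Csrp3 and Tnni2. Leaving out any 1 of the 4 libraries left 24 to 26 of the 27 calls, and centring left 27. The lists were drawn up with earlier results of these data known, so such a count is a description.

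Some sarcomere genes were filled already at day 1, while others were empty. Ttn, which encodes the giant spring protein titin, was covered to 92.8 and 94.5% at day 1 and to 96.9 and 96.6% at day 5, a difference of 3.08 points that did not pass the test (adjusted p = 0.75). Tpm2, a tropomyosin, was at 90.9 and 85.3% and then at 88.1 and 85.6% (adjusted p = 0.831). Actn2, the Z-disc actinin, and Csrp3, a Z-disc LIM protein, were at 0% in both day 1 libraries. They reached 71.0 and 59.1% and 75.7 and 70.6% at day 5. Myom1, of the M-band, and Lmod2, which builds thin filaments, also began at 0% and reached 68.0 and 58.2% and 70.8 and 68.8%. In between stood Tnnt3, the fast troponin T, which went from 17.6 and 19.1% to 90.8 and 91.0%, and Tnni2, the fast troponin I, which went from 15.3 and 15% to 71.3 and 47.2%. Sarcomere genes thus differed in how much of their cover was in place at day 1.

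The myosin heavy chain genes, which are used in turn during muscle development, differed among themselves. Myh3, the embryonic form, was covered to 29.8 and 22.4% at day 1 and to 96.5 and 89.6% at day 5, a gain of 67.0 points (SE 4.01, adjusted p = 1.19e-05). The perinatal Myh8, the adult fast Myh1 and Myh4 and the slow Myh7 were at 0% in both day 1 libraries. At day 5 Myh1 was at 88.7 and 80.8%, Myh7 at 68.5 and 51.7%, Myh4 at 43.4 and 45.3% and Myh8 at 31.4 and 15.6%. These 5 genes were called, though Myh4, Myh7 and Myh8 were tested only because of their day 5 cover in control medium. Myh2, the fast form of type IIA fibres, stayed at or near 0%, with 2.37 and 0% at day 5, and was below the minimum for testing. All but Myh7 lie side by side on chromosome 11. Myosin genes resemble one another in their coding parts, and how reads matching several of them were treated is not given in the sources used here. The muscle actin genes were partly covered at day 1. Acta1, skeletal actin, went from 66.1 and 55.8% to 92.1 and 94.1%, and Actc1, the cardiac form that embryonic muscle also uses, from 25.4 and 48.8% to 82.4 and 64.3%. Their calls were not firm. Acta1 lost its call without day 1 replicate 2 or either day 5 replicate and on the arcsine square root scale. Actc1 lost it without replicate 1 of either day, in the fit of the 4 libraries alone and with gaps up to 1 kb merged (highest adjusted p 0.115 for Acta1 and 0.304 for Actc1).

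**Figure D2:**
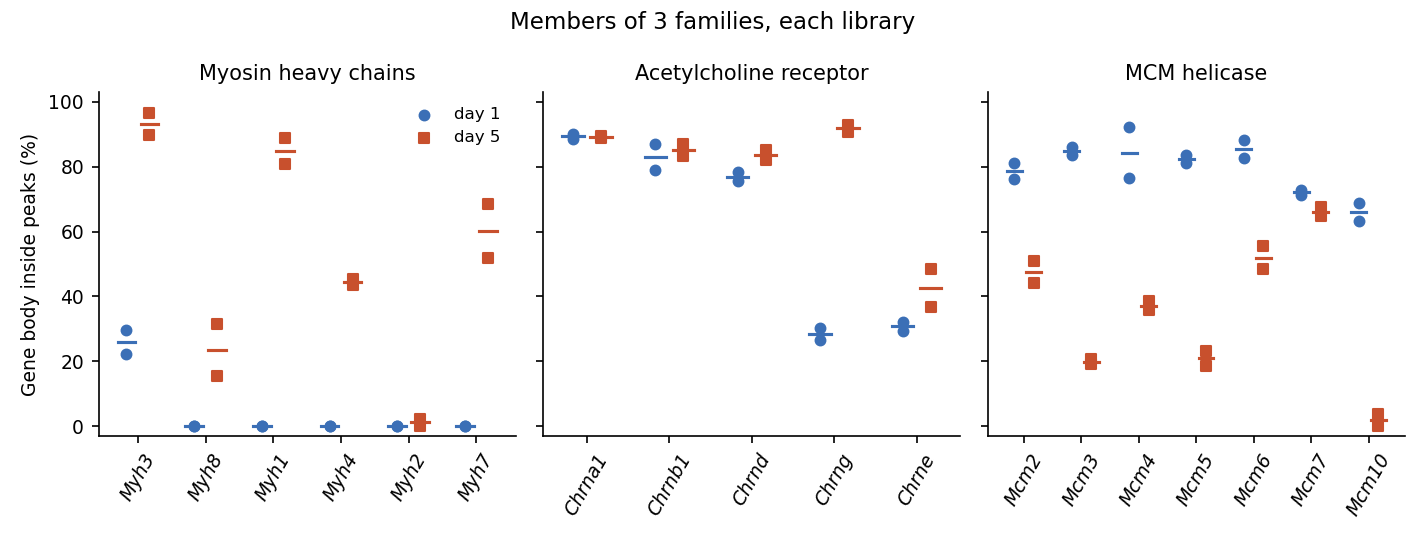
Percent of the gene body inside peaks for myosin heavy chain genes, acetylcholine receptor subunits and MCM helicase genes. Circles are day 1 libraries, squares day 5 libraries and short lines the means of 2 libraries. Myh2 stays near 0% while Myh3 and Myh1 are at 80.8% or more in both day 5 libraries, Chrng is the receptor gene that moves most, and Mcm7 moves least of the MCM genes.

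Among the myogenic transcription factors 2 rose, Myog and Mef2c, and 1 fell, out of 8 tested members of 11, too few to set apart from the 17.1 and 5.95% of all genes. Myog, which encodes myogenin, was covered to 70.6 and 73.2% at day 1 and to 91.7 and 93.4% at day 5, a gain of 20.7 points (SE 3.16, adjusted p = 0.00207). It had been at 0% in both day 0 libraries. Mef2c, a partner of the MyoD family, went from 0% in both libraries to 36 and 29.8% over 163 kb. It reached the minimum for testing only through those day 5 libraries. Myod1, which commits cells to the muscle lineage, was at 67.7 and 50.2% and then at 66.8 and 78.4% (adjusted p = 0.153), with the days overlapping. Without day 1 replicate 1 it passed the test (lowest adjusted p 0.0452). Its body and that of Myog are under 3 kb, so a single peak can fill much of either.

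Genes of excitation and calcium handling rose in 12 of 17 tested members of 20, against 17.1% of all genes, and 0 fell, also at an unadjusted p under 0.05 in limma. Of the 12, Casq1, Cav3 and Scn4a reached the minimum for testing only through the day 5 control libraries. Their median difference was 27.8 points over the 20. Ryr1, the calcium release channel, had cover at day 1 already, 65.3 and 62.4%, and reached 96.4% in both day 5 libraries. Atp2a1, the calcium pump of fast fibres, went from 68.6 and 59.0% to 92.0 and 93.6%. Casq1, the calcium buffer of fast fibres, went from 0% in both libraries to 72.0 and 62.5%. Jph1, which holds the reticulum against the cell membrane, went from 3.01 and 3.65% to 47.6 and 39.4%, and Cav3, the muscle caveolin, from 0% to 44.0 and 53.3%. Ryr1 and Atp2a1 were thus ahead of Casq1, Jph1 and the voltage sensor Cacna1s in the cover they had at day 1. This order did not hold by function. Jph2, another junction protein of the list, was at 63.0 and 58.9% at day 1, and Ryr3, another release channel, at 0.0712 and 0.163%.

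Among genes of the acetylcholine receptor and the neuromuscular synapse, 5 of 10 tested members of 12 rose, against 17.1% of all genes, and 0 fell. The subunit genes differed. Chrng, the gamma subunit of the fetal receptor, went from 26.6 and 30.3% to 90.7 and 92.9%, a gain of 63.4 points (SE 2.85, adjusted p = 2.55e-06). Chrna1, the alpha subunit, was at 88.6 and 90.0% and then at 88.9 and 89.5% (adjusted p = 0.991). Musk, the receptor kinase that organises the synapse, went from 15.4 and 16.1% to 78.6 and 69.5%. Rapsn, which clusters receptors, went from 40 and 26.1% to 79.0 and 70.8%, and Lrp4, the partner of MuSK, from 57.5 and 64.4% to 92.1 and 90.7%. Dok7, the activator of MuSK, also rose, by 23.9 points, and lost its call in lists of equal length (adjusted p 0.13).

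The dystrophin complex and intermediate filament list rose in 8 of 11 tested members of 14, against 17.1% of all genes, and 0 fell, whereas after centring 7 were higher and 2 lower. Dag1, which encodes both dystroglycans, went from 48.2 and 49.3% to 89.9 and 87.1%. Sgca, a sarcoglycan, went from 5.7 and 7.17% to 64.1 and 47.8%, and Capn3, a muscle protease, from 2.73 and 4.75% to 60.5 and 55.6%. Sgca and Capn3 reached the minimum for testing only through the day 5 control libraries.

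Fusion and adhesion genes moved both ways, with 5 of 14 tested members of 16 higher and 4 lower, against 17.1 and 5.95% of all genes. Mymk, the fusion protein myomaker, went from 26.8 and 46.9% to 82.5 and 82.2%. Ncam1, a neural and muscle adhesion molecule, went from 20.5 and 20.3% to 73.1 and 65.7% over 297 kb, and Bcam, a laminin-binding adhesion molecule, from 0% in both libraries to 56.9 and 57.4%, through which alone it reached the minimum for testing. Cdh15, the M-cadherin of myoblasts, went from 96.6 and 96.7% to 82.3 and 83.2%. Vcam1, a cell surface adhesion molecule, went from 37.5 and 35.3% to 3.62 and 9.0%, and Kirrel, of the nephrin family, from 58.6 and 62.3% to 43.6 and 35.6%. Leaving out any 1 of the 4 libraries kept 4 or 5 of the 5 gains and 0 or 1 of the 4 losses. Lists of equal length kept 2 of the gains and 3 of the losses, and centring 4 and 4.

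**Figure D3:**
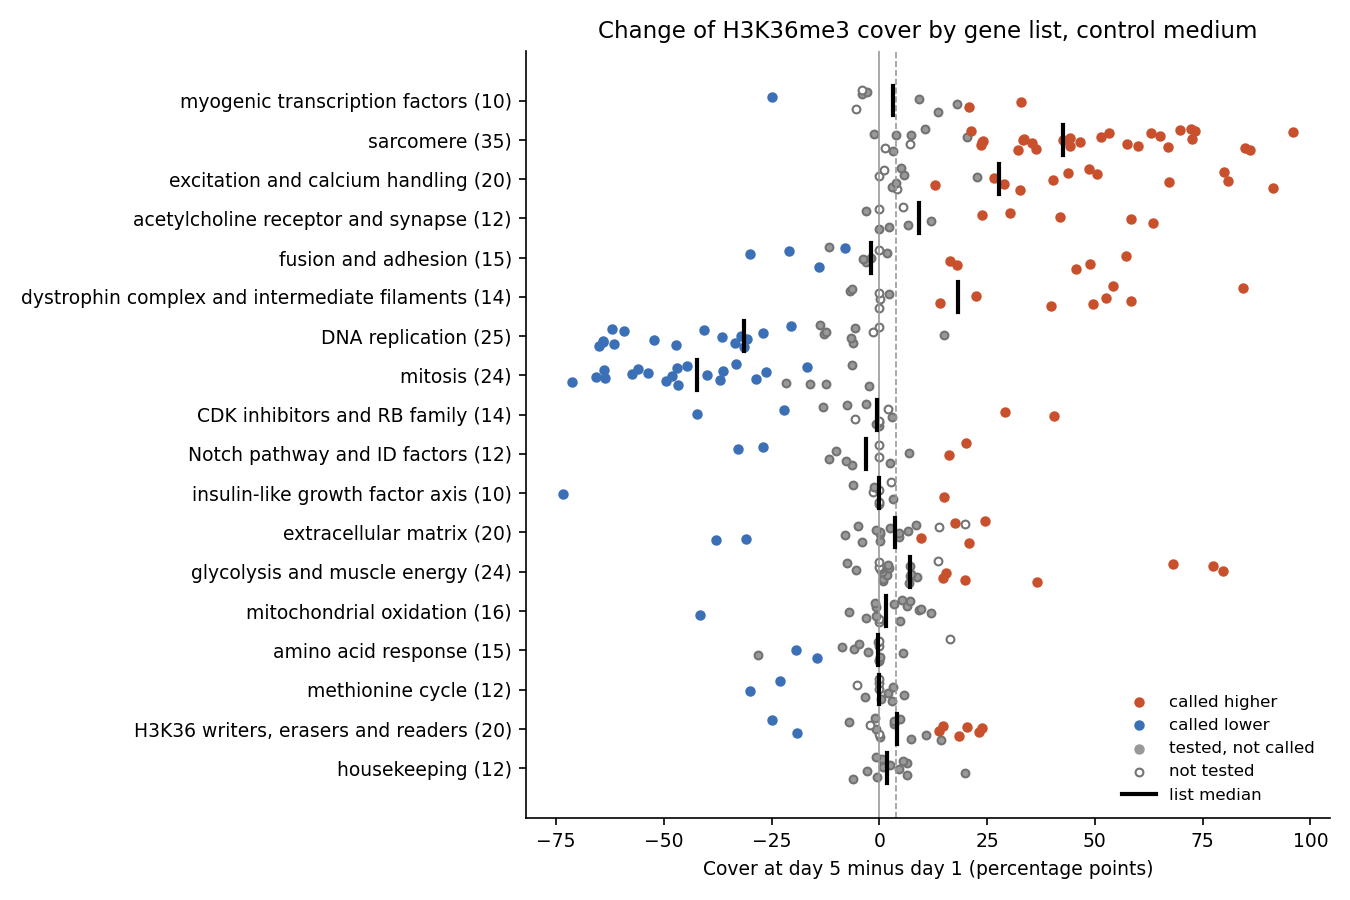
Difference in cover, day 5 minus day 1 in percentage points, for the members of 18 gene lists. Each point is a gene, the number in brackets is the count of members with a body of at least 2 kb, thick bars are list medians and the dashed line is the median over all genes tested, 3.89 points. Sarcomere genes centre on 42.5 points and mitosis genes on −42.3.

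DNA replication genes lost cover. Of 23 tested members of 25, 16 fell and 0 rose, also at an unadjusted p under 0.05, against 5.95% of all genes falling, and the median difference was −31.3 points. The MCM genes encode the helicase that opens origins. Mcm5 went from 81.0 and 83.7% to 23.3 and 18.5% and fell by 61.5 points (SE 3.37, adjusted p = 6.82e-06). Mcm4 went from 76.5 and 92.1% to 35.8 and 38.5%, and Mcm6 from 82.8 and 88.1% to 55.4 and 48.4%. Mcm2 fell by 31.3 points and Mcm10, which helps to activate the helicase, by 64.2 points. Mcm7 was at 72.9 and 71.4% and then at 64.8 and 67.5%, which did not pass the test (adjusted p = 0.294), though it did after centring (adjusted p 0.0312). The body of Mcm7 is short, 7.53 kb.

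Cdc6, which loads the MCM helicase, went from 63.4 and 79.4% to 4.5 and 9.94%. Pole, the catalytic subunit of the leading-strand polymerase, went from 64.3 and 70.4% to 7.57 and 8.46%. Lig1, the ligase that joins Okazaki fragments, went from 55.2 and 73.2% to 2.23 and 2.25%, and lost its call at a −log10 q of at least 3 and in lists of equal length (highest adjusted p 0.391). Without each of the 4 libraries in turn, 13 or 14 of the list's genes were called lower, and after centring 22 were.

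Mitosis genes fell in 19 of 24 members, all of them tested, and 0 rose at any of these thresholds, against 5.95% of all genes falling. Their median difference was −42.3 points, and median cover went from 82.9 to 39.0%. Ccnb1, the mitotic cyclin B1, went from 84.7 and 86.5% to 33.7 and 44.1%. RefSeq lists a pseudogene copy of Ccnb1, so its reads are uncertain. Mki67, the proliferation antigen Ki-67, went from 79.6 and 83.3% to 51.7 and 38.5%. Top2a, which untangles chromosomes, went from 95.7 and 96.3% to 75.0 and 64.4%, so that most of its body was still covered at day 5, and lost its call when gaps up to 1 kb were merged (adjusted p 0.304). Cdk1, the mitotic kinase itself, was at 89.8 and 91.2% and then at 78.2 and 70.8%. That difference of −16 points missed the threshold (adjusted p = 0.053) and passed it in 7 of the 18 alternatives. Ccna2, cyclin A2, was at 75.8 and 73.0% and then at 73.6 and 70.3% (adjusted p = 0.646). The mean cover of the 24 genes at day 5 ran from 2.12 to 77.9%.

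In the list of CDK inhibitors, the retinoblastoma family and their partners of the cyclin D and E2F families, 2 of 10 tested members of 14 were higher and 2 lower, a share of gains near the 17.1% of all genes, and too few losses to set apart from 5.95%. Rb1, the retinoblastoma protein that silences E2F targets, went from 11.4 and 17.6% to 55.5 and 54.3% over 133 kb, a gain of 40.4 points (SE 3.42, adjusted p = 7.8e-05). Its relative Rbl1, p107, went the other way, from 62.7 and 65.9% to 24.1 and 19.7%, a fall of 42.4 points (SE 5.19, adjusted p = 0.000627). Rbl2, p130, went from 46.1 and 44.6% to 76.2 and 72.8%, and lost its call without either day 1 replicate, without day 5 replicate 1 and in lists of equal length (highest adjusted p 0.227). Ccnd1, cyclin D1, went from 82.5 and 82.3% to 63.0 and 57.6%, and lost its call when gaps up to 1 kb were merged (adjusted p 0.525). Cdkn1a, the inhibitor p21, was at 69.4 and 66.5% and then at 70.1 and 65.6% (adjusted p = 0.995). Within the retinoblastoma family, Rb1 and Rbl1 thus changed in opposite directions.

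The Notch targets Heyl and Hey1 fell. Heyl went from 71.3 and 77.8% to 53.6 and 41.4% and fell by 27.1 points (SE 4.65, adjusted p = 0.00387), after 15.9 ± 3.47% (SD, n = 2) at day 0. Hey1 went from 72.8 and 43.3% to 21.6 and 29.0%, and lost its call without either day 5 replicate and in the fit of the 4 libraries alone (highest adjusted p 0.143). Numb, an inhibitor of Notch, went from 12.7 and 15.9% to 35.8 and 33.3%, a call lost at a −log10 q of at least 3 (adjusted p 0.0512). Of 10 tested members of the Notch and ID list of 14, 2 were higher and 2 lower, again near the 17.1% of all genes for the gains and too few to set apart from 5.95% for the losses. In the list of the insulin-like growth factor axis, Igf2r was higher and Igfbp2 lower among 5 tested members of 10, and the call of Igf2r was lost in 7 of the 18 alternatives, among them the fits without either day 1 replicate or day 5 replicate 1.

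In the extracellular matrix list 4 of 17 tested members of 20 were higher and 2 lower, too few to set apart from the 17.1 and 5.95% of all genes. Col4a1 and Col4a2, which encode the chains of the basement membrane collagen from a shared promoter region, fell together. Col4a1 went from 47.1 and 41.0% to 7.01 and 5.53%, a fall of 37.8 points (SE 3.65, adjusted p = 0.000158). Col4a2 went from 40.2 and 36.7% to 7.8 and 7.11%, a fall of 31.0 points (SE 3.67, adjusted p = 0.000487). Col1a1, of fibrillar collagen, went from 69.1 and 69.6% to 87.9 and 92.3%, and lost its call after centring and in 5 other alternatives. Of the 4 gains, 0 or 1 stayed called without each of the 4 libraries, and 1 after centring, whereas the collagen IV pair kept its calls in each of the 18 alternatives. Postn, a matricellular protein, was at 0% at day 1 and at 19.5 and 20.1% at day 5, below the minimum for testing.

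In the list of glycolysis and muscle energy, 7 of 21 tested members of 24 rose, against 17.1% of all genes, and 0 fell. Eno2, given above, was one of them. Pygm, muscle glycogen phosphorylase, went from 11.7 and 8.25% to 89.6 and 85.2%, a gain of 77.4 points (SE 4.26, adjusted p = 7.8e-06). Ckm, muscle creatine kinase, went from 3.53 and 0% to 79.0 and 60.6%. Hk2, the hexokinase of insulin-sensitive tissue, went from 43.3 and 43.8% to 81.7 and 78.7%. The muscle phosphofructokinase Pfkm and the muscle phosphoglycerate mutase Pgam2 gained 19.8 and 15.5 points. Pfkm lost its call without day 1 replicate 1, and Pgam2 in 8 of the 18 alternatives (highest adjusted p 0.0532 and 0.206). Eno2 and Ckm reached the minimum for testing only through the day 5 control libraries. Without day 1 replicate 1 the list had 4 calls. In the list of mitochondrial oxidation, 0 of 14 tested members of 18 rose (2 at an unadjusted p under 0.05), and 1 fell, a share near the 5.95% of all genes. That gene was Cpt1b, the muscle form of the enzyme that admits fatty acids to mitochondria, which went from 81.0 and 65.0% to 37.1 and 25.5%. Its call was lost at a −log10 q of at least 3 (adjusted p 0.212).

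At the genes of the mark's own machinery changes ran both ways. Setd2 was covered to 62.4 and 69.9% at day 1 and to 82.8 and 78.4% at day 5, and the difference of 14.4 points (SE 5.21) missed the threshold (adjusted p = 0.0823). It passed in 3 of the 18 alternatives. Of 18 tested members of the list of H3K36 writers, erasers and readers, 6 were higher and 2 lower, against 17.1 and 5.95% of all genes, but only 1 and 1 without day 5 replicate 1 and 3 and 1 without day 1 replicate 1. Kdm4b, a demethylase of lysine 36 and lysine 9, went from 53.2 and 50% to 76.7 and 74.1%, and Nsd3, a writer of the dimethyl mark, from 54.5 and 56.4% to 76.4 and 71.4%. Both lost the call without day 5 replicate 1 and in lists of equal length, and Nsd3 also without day 1 replicate 1 (highest adjusted p 0.0685 and 0.0798). Smyd2, a lysine methyltransferase, and Phf19 were lower. The call of Smyd2 was lost in 4 of the 18 alternatives, and the loss at Phf19, whose product reads H3K36me3 for the Polycomb complex, was 25 points but became 0 at a −log10 q of at least 3 and was not called in lists of equal length.

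In the amino acid response list 0 of 11 tested members of 15 rose and 2 fell, and in the methionine cycle list 0 of 8 tested members of 12 rose and 2 fell, with 0 rising at an unadjusted p under 0.05 in limma either. All calls in these lists were thus losses. Each list had too few tested members to set its counts apart from the 17.1% of all genes rising and 5.95% falling. Mtrr, which reactivates methionine synthase, went from 59.1 and 50% to 28.9 and 20.1%, and Mtap, of methionine salvage, from 76.9 and 84.4% to 59.3 and 56.0%. Asns, asparagine synthetase, went from 41.3 and 46.2% to 27.7 and 31.0%, and Phgdh, of serine synthesis, from 88.7 and 77.2% to 63.7 and 63.3%. RefSeq lists a pseudogene copy of Phgdh too. Each of these 4 genes lost its call in 3 to 7 of the 18 alternatives, among them the fit without day 1 replicate 1. Without each of the other 3 libraries the methionine cycle list kept 1 of its 2 calls, and the amino acid response list kept 1, or 0 without day 5 replicate 1. The housekeeping list gave 0 calls in 12 tested members in limma, with a median difference of 1.69 points. At an unadjusted p under 0.05 the count was 1, and in the fit of the 4 libraries alone it was 1.

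Marker genes of other cell types were checked for signs of another lineage. All 5 endothelial markers and all 4 leukocyte markers with a body of at least 2 kb were at 0% in each of the 4 libraries. Of 7 adipocyte markers 6 were at 0% in all 4, and the list's summed cover was 0% at day 1 and 1.77 to 4.46% at day 5. Of 5 osteoblast and 5 chondrocyte markers with values, only Runx2 and Sox9 were covered. Runx2 was at 18.6 and 19.6% and then at 23.3 and 20.8%, and Sox9 at 69.7 and 63.4% and then at 64.3 and 54.3%. The summed cover of the cardiac list was 14.4 to 16% at day 1 and 9.7 to 12.9% at day 5. The neuron list went from 71.3 to 72.6% to 48.1 to 55.6%, most of it at Tubb3, a tubulin, of which RefSeq lists a pseudogene copy. Of the tested markers 2 were called lower, 1 of the 2 tested in the neuron list and the only 1 tested in the cardiac list. The other marker lists had 0 calls, and these counts are too small to set apart from the 5.95% of all genes falling. Tubb3 fell by 19.3 points (adjusted p = 0.0257), and Gata4, a cardiac transcription factor, fell by 5.99 points (adjusted p = 0.047). These calls were lost in 6 and 13 of the 18 alternatives. The smooth muscle list, covered mostly at Acta2 and Smtn, went from 197 to 205% to 208 to 215%.

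Hairpins of microRNAs, short RNAs that repress messages matching their seed (bases 2 to 8), were placed on the peak lists after the data had been seen. Of 1005 hairpins in the RefSeq table, 250 lay inside peaks of all 4 libraries, 12 (1.19%) inside both day 5 and outside both day 1 lists, and 8 (0.796%) the reverse. Those gained included Mir6923, inside Myh3, and Mir210, a microRNA induced by low oxygen. Those lost included the whole cluster of Mir182, Mir96 and Mir183 on chromosome 6 of GRCm38, 30165918 to 30169737 on the minus strand, which has no protein-coding host gene. Their mature RefSeq sequences are shown because all 3 members left the peaks, with the seed in capitals.
miR-182-5p: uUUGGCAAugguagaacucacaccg
miR-96-5p: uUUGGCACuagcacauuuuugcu
miR-183-5p: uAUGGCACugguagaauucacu
The 3 hairpins lie within 4 kb of each other, so they are not independent, and were chosen after their values were seen. Presence in a peak says nothing of the level of the mature RNA.

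Each gene body was split into 10 equal bins, and in all 3 gene sets cover at both days was lowest in the bin at the start of the gene. Among 1264 genes with higher cover, a known strand and at least 5 kb, mean cover at day 1 was 5.87% in the first bin and 48.0% in the last. At day 5 it was 16.5 and 71.6%. The difference between the days was 10.6 points in the first bin, 27.4 in the sixth and 23.6 in the last. Mean cover was thus higher at day 5 in every bin, by the least at the start. These are means over genes, some of which, such as Scn4a and Trim63, had no cover at day 1. They cannot tell peaks that extended toward the start within a gene from bodies that filled from empty. In 412 genes with lower cover, the difference was −7.71 points in the first bin and grew to −36.6 in the ninth. Both sets were chosen by the difference between the same libraries, so that the days lie apart in them is fixed by the choice. In 5307 genes that were tested and not called, the difference was at most 5.05 points.

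**Figure D4:**
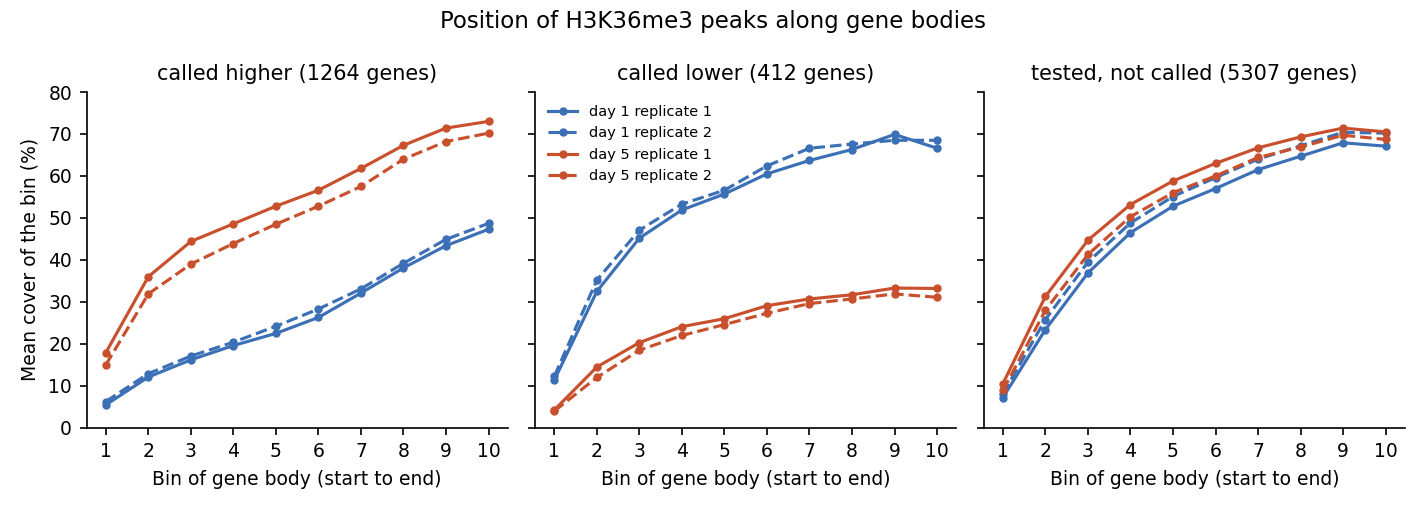
Mean cover in each of 10 bins of the gene body, from the start (1) to the end (10), for genes called higher, called lower and not called. Blue lines are day 1 libraries and red lines day 5 libraries, solid for replicate 1 and dashed for replicate 2. The lines of the days stand apart in the called genes, which were chosen for it, from 48.0 to 71.6% in the last bin of the genes called higher, and run close together in the others.

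Short motifs were counted on both strands of the 300-base RefSeq promoters. Here the genes that rose or fell are only those called genes whose libraries did not overlap between the days. CAGCTG stood in 17.1% of 1307 promoters of genes that rose, 14.1% of 460 of genes that fell, 14.3% of 7711 of genes tested and 16.1% of all 27025. The E2F-type letters TTTCCCGC stood in 5.22% of promoters of genes that fell, 1.15% of those of genes that rose and 2.44% of those of genes tested, and TTTGGCGC in 2.61, 0.612 and 1.12%. CCAAT, a box common in promoters of cell cycle genes, stood in 48.7% of promoters of genes that fell, 35.5% of those of genes that rose and 39.2% of those of genes tested. A match is only a match of letters, and these shares were not tested.

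The same days were also sampled under methionine restriction. The change from day 1 to day 5 in control medium was compared with the change under restriction in the same fit, and these changes share no library. Over all genes tested 495 (5.2%) differed, 341 with the control change above the restricted one (3.58%) and 154 below it (1.62%), and the median change was 3.89 points in control medium and 4.22 under restriction. Of the 11 gains named by size, 10 had a called difference, each with the larger gain in control medium. These genes were chosen for their gain in control medium, which is one term of the difference, so the count is tilted toward it and is a description. Eno2 was at 0% in all 4 restricted libraries, against a gain of 79.7 points in control medium. Scn4a was at 0% in both restricted day 1 libraries and at 14.3 and 16.6% at day 5. Both genes reached the minimum for testing only through the day 5 control libraries, so their differences between media are a description. Neb was the exception, with a gain of 82.3 points under restriction and 86.0 in control medium (adjusted p of the difference 0.725).

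The losses, chosen likewise, were compared in the same way. Of 15 named genes that fell, 2 had a called difference, Igfbp2 and Mcm3. Mcm3 was at 89.4 and 89.2% at restricted day 1 and at 75.7 and 68.1% at restricted day 5, a change of −17.4 points, while it fell by 65.0 points in control medium (difference −47.6, SE 4.66, adjusted p = 0.000841). Igfbp2 was at 34.5 and 21.9% at restricted day 1 already and at 4.01 and 3.6% at day 5. The other 13 genes fell by at least 65.2 points under restriction. Without either control day 1 library 10 of the 26 genes had a called difference rather than 12, and without restricted day 1 replicate 2 or either restricted day 5 library 11. The restricted lists were shorter, 128 and 110 Mb at day 1 and 131 and 134 Mb at day 5. In lists of equal length 13 of the 26 genes differed.

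**Figure D5:**
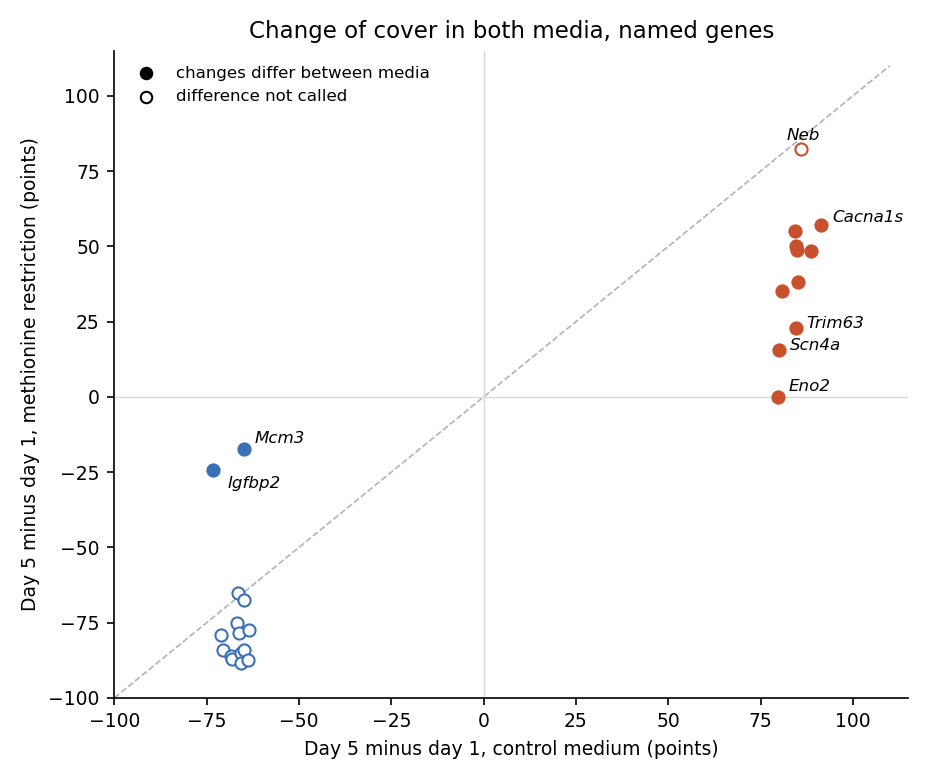
Change in cover from day 1 to day 5 under methionine restriction against the change in control medium, in percentage points, for the 26 genes named by size. Filled points are genes whose changes differ between media, open points those with no called difference, and the dashed line marks equal changes. Of the 11 gains only Neb is open, and of the 15 losses only Igfbp2 and Mcm3 are filled.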

How the data were processed

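The deposited files are 1 broad-peak list per library. Per the labels' protocols, chromatin was spiked with Drosophila chromatin and sequenced from a single end. The build is GRCm38, per the submitters' processing notes, and the peak caller, its control and its settings are not given in the sources used here. Each peak carries a −log10 q deposited by the authors, used only to filter or rank peaks within a list. No spike-in scaling was applied here, and the input was not used here. Since lists were called per library, depth is unknown and no counting interval is given.

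Overlapping peaks of a library were joined (autosomes, X and Y), and the percent of each of 19304 protein-coding RefSeq bodies (GRCm38.p6, at least 2 kb) inside them was computed. Genes with a mean of at least 5% over 10 wild-type libraries (9514) were tested with limma 3.58.1 (R 4.3.3, trend and robust), in a model of 5 groups, with Benjamini-Hochberg adjustment over all of them. Library totals were compared by exact permutation. The computation of cover and the limma fit were tested on simulated data. Named by size are the 12 largest gains and losses without overlap between days, and the 4 largest in bodies of at least 50 kb; list members serve as examples. A few genes are not reported here, among them 1 of the gains, which leaves 11. The members and lists were chosen with earlier results of these data known. A gene with a body under 2 kb has no value. Other scalings, filters, fits and left-out libraries are given in the closing section.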

Additional observations from a re-analysis of the deposited data

Results flagged for a closer look

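For 12 of the 26 genes named by size the change from day 1 to day 5 differed between control medium and methionine restriction, by the interaction term of the limma fit. The control change exceeded the restricted one by 79.7 points in Eno2, 64.6 in Scn4a, 61.6 in Trim63, 47.0 in Prkag3, 45.5 in Casq2 and 40.4 in Myom3. It exceeded it by 36.1 points in Unc45b, 34.7 in Myh1, 34.2 in Cacna1s and 29.3 in Dysf. For the losses the difference was −49.0 points in Igfbp2 and −47.6 in Mcm3. Eno2 and Scn4a reached the minimum for testing only through the day 5 control libraries, so their values are a description. The genes were chosen for their change in control medium, which is one term of the difference. Why the changes differ was not tested.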

How the results depend on the processing

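Keeping only peaks with a −log10 q of at least 3 gave 1296 called genes, 891 of them higher. It moved the day 5 gain to 22.8 Mb, 2840 peaks and 0.455 percentage points of bases in gene bodies, and merging gaps up to 1 kb moved the gain in peaks to 3750. Centring gave 988 higher and 1176 lower genes, and lists of equal length 631 and 876; there the count of genes with at least 50% cover changed by −142 rather than 636. Leaving out 1 of the 10 libraries gave 1186 to 2685 called genes, 807 to 1999 higher and 366 to 686 lower; the lows of 1241, 1436 and 1186 calls came without day 1 replicate 1, day 1 replicate 2 and day 5 replicate 1, which leave a day with 1 library assumed to vary like the other groups. The gain was then 25.7 to 38.3 Mb, 7640 to 11400 peaks, 416 to 856 genes and 0.304 to 0.429 percentage points, and 10 to 13 named genes differed between media.

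Replicate numbers did not pair the libraries (correlation of deviations −0.0209 between the days, and −0.439 to 0.0614 over the 10 pairs of groups in the fit), and a replicate block gave 1988 calls. Gained and lost segments numbered 12935 and 3513 at 500 bases, 92 and 2 at 5 kb and 5742 and 1985 at a −log10 q of at least 3; in lists of equal length 4011 were lost. Leaving out 1 list gave 5171 to 8712 gained and 1566 to 1939 lost.

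Of 97 called genes named in the text, 64 kept the call in each of the 18 alternatives, and 6 kept it in 16 and were not tested in the other 2. At a −log10 q of at least 3 the difference at Phf19 was 0. Genes without a call changed sign in places: Ttn was at −3.03 points and Runx2 at −3.16 after centring, and Runx2 at −1.51 in lists of equal length. Tpm2 was at 0.0152 with gaps merged and at −4.06 to 1.5 without 1 library, Chrna1 at −0.838 to 0.569 without 1 library, and Cdkn1a at 2.26 with gaps merged and −2.38 to 2.17 without 1 library. The difference between media turned to −7.02 in Cdc25c and −5.75 in Dlgap5 at a −log10 q of at least 3, and to −2.93 in Dlgap5, 7.87 in Nsl1 and −0.126 in Espl1 in lists of equal length. The causes were not tested. Depth, which could move every list, is unknown.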
